A study of Caenorhabditis elegans with 2 samples.

Results

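The distal summits of F13C5.2 are the positions where this protein was recovered in early Caenorhabditis elegans embryos away from the 5′ ends of coding genes and away from small RNA genes. A summit is the base that the authors' peak caller gave as the highest point of a peak. In the Ensembl annotation of WBcel235 (ce11), each coding transcript was given a promoter window from 1000 bp upstream to 200 bp downstream of its 5′ end, and a summit counted as distal outside all of these windows and more than 500 bp from any tRNA, snoRNA or snRNA gene. The rule used position alone, and 404 summits (21.8%) of the authors' irreproducible discovery rate (IDR) list met it. The rest of that list was 1255 summits in promoter windows and 191 near small RNA genes. The 404 comprised 224 summits between genes, 130 in introns of coding genes, 42 in annotated non-coding genes outside coding transcripts and 8 in untranslated or coding exons. A summit in both an intron and a non-coding gene was counted as intron. With the other order 106 summits were counted as intron.

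The study measured chromatin immunoprecipitation with sequencing in strain OP605, whose genotype is unc-119(tm4063) III with the transgene wgIs605. The transgene expresses F13C5.2 with a C-terminal GFP-FLAG tag, and the antibody was raised against GFP, so the tagged copy was measured and not the native protein. There was 1 group of mixed-sex early embryos, taken 1 hour after synchronization by egg bleaching, with 2 biological replicates numbered 2 and 3. The labels do not name the promoter of the transgene, whole embryos mix all cell types of their stage, and peaks of an untagged strain were not analysed here. Each replicate list held 30000 entries, peaks and background together as input to the IDR step, ranked by a signal score of the caller. The read depth is unknown.

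F13C5.2 is annotated as a bromodomain protein, and bromodomains are known to bind acetylated lysines such as those on histone tails. In C. elegans most known regulatory sequence lies close upstream of genes, but enhancers in long introns and in wide intergenic spaces are also known. Annotated 5′ ends are often trans-splice sites, since many transcripts lose their original 5′ end to a spliced leader, and transcription can therefore begin well upstream of them. Chromosome X of hermaphrodites is bound by the dosage compensation complex, a condensin that loads at recruitment elements on X (rex sites), and a 12-letter word named MEX is a known part of those elements.

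The strongest distal summits are shown first, because many of them share a word. Within 100 bp of the summit, 7 distal summits held the MEX consensus with at most 1 mismatch, and all 7 were on chromosome X. Each sequence below is 92 bases of the RefSeq WBcel235 assembly, read 5′ to 3′ on the strand of the word, and the capitals mark the word itself.
rank 23, chrX:806617-806708, minus strand: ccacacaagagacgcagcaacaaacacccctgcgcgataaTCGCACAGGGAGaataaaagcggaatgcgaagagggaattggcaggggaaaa
rank 34, chrX:11094083-11094174, minus strand: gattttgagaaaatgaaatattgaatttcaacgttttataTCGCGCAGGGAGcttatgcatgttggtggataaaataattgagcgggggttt
rank 49, chrX:4209224-4209315, minus strand: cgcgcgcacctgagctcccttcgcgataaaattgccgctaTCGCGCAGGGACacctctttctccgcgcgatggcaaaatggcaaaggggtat
rank 58, chrX:5429548-5429639, plus strand: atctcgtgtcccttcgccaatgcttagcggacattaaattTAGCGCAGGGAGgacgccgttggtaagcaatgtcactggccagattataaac
rank 86, chrX:6296534-6296625, plus strand: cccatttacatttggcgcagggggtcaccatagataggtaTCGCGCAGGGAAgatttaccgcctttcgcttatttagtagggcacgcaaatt
rank 95, chrX:16682130-16682221, minus strand: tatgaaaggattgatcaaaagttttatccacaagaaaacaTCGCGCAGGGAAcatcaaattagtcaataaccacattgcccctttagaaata
summit in Y41G9A.17, chrX:2997081-2997172, minus strand: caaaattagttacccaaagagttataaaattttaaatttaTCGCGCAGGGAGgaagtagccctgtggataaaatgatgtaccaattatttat

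The strongest distal summits on autosomes lay at genes of the mir-51 microRNA family. MicroRNAs pair with messenger RNAs mainly through their seed, bases 2 to 8, and the mir-51 family is abundant in C. elegans embryos and is required for embryonic development. The RefSeq mature strands that carry the family seed are shown with the seed in capitals.
mir-51, chrIV:11026074-11026096, minus strand: uACCCGUAgcuccuauccauguu
mir-52, chrIV:14034024-14034047, plus strand: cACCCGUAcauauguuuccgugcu
mir-53, chrIV:11027653-11027676, minus strand: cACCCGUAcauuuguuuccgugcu
mir-54, chrX:13145011-13145034, minus strand: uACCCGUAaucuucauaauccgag
mir-55, chrX:13144842-13144864, minus strand: uACCCGUAuaaguuucugcugag
mir-56, chrX:13144706-13144727, minus strand: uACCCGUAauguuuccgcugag

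A larger set of distal windows held GA-rich or CA-rich repeats or a 7-letter word. The pair below is shown because both are among the stronger distal summits: rank 181 held GAGAGAGA, and rank 171 held CTGCGTC and CACACACA. Each is shown as the summit base and 100 bases on each side, with those words, on either strand, in capitals.
rank 181, chrII:11749853-11750053, plus strand, 1342 bp upstream of gpb-1: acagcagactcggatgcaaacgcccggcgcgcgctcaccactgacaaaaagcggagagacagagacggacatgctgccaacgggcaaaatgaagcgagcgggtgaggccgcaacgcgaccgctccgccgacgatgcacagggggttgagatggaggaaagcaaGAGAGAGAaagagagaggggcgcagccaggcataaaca
rank 171, chrIII:13068437-13068637, plus strand, 2219 bp upstream of Y39E4B.6: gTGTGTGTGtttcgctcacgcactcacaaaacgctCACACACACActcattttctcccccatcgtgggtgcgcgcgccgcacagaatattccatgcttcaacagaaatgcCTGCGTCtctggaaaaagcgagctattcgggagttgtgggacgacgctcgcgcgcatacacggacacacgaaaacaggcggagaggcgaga

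Among distal summits, signal was mostly low in the IDR list, with a small strong tail. The median IDR signal was 98.5 (interquartile range 86.2 to 118) for the 404 distal summits, 108 for the 1255 promoter summits and 152 for the 191 summits near small RNA genes. Distal summits made up 9.20% of the first 250 IDR ranks, 17.4% of the next 500, 24.2% of the 500 after those and 28.8% of the last 600. The highest distal signal was 395 and the lowest 77.9, and by class the medians were 99.4 between genes, 96.6 in introns and 100 in non-coding genes. The classes of distal summits overlapped over nearly the whole range, and the medians of these 3 classes lay below that of the promoter summits.

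**Figure D1:**
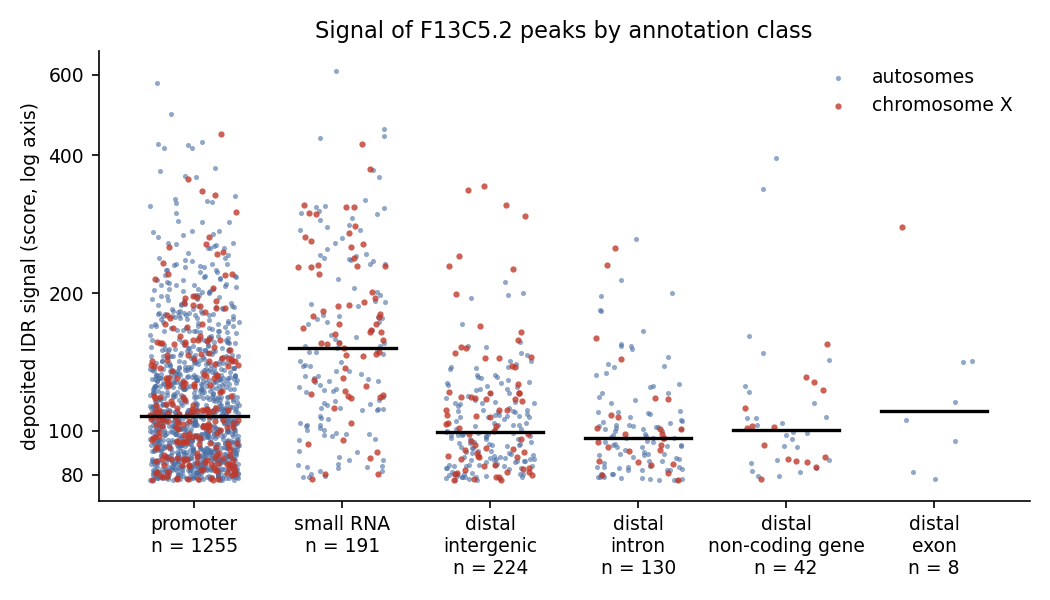
Deposited IDR signal (score, log axis) of each IDR summit by annotation class, with chromosome X in red, autosomes in blue and the class median as a black bar. The intergenic, intron and non-coding medians are 99.4, 96.6 and 100, below the promoter median of 108, and several of the highest intergenic points are on X.

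Most distal summits had a listed summit nearby in both replicates, but the ranks there were unlike each other. The replicate lists include background, and matched ranks ran to 18044 in replicate 2 and 29034 in replicate 3. A match is therefore a listed position and not always a clear peak. A summit within 100 bp was present in both replicate lists for 357 of 404 distal summits (88.4%, 95% Wilson interval 84.9 to 91.1%, counting error only), beside 91.6% of all IDR summits and 92.4% of promoter summits. Of the rest, 30 matched replicate 3 alone, 16 matched replicate 2 alone, and 1 between genes near mob-2 (rank 1506) matched neither. Within 200 bp, 99.3% of distal summits matched in both lists, so most of the rest had a listed summit slightly farther off. Counting as the top of a replicate list as many peaks as the IDR list holds, a rank in the top of both was held by 166 distal summits (41.1%, interval 36.4 to 45.9%), beside 55.2% of all IDR summits and 56.3% of promoter summits. Both lists entered the IDR list, which itself favours matched peaks.

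The lower share came with lower ranks in replicate 2. In replicate 2 the median rank of matched distal summits was 1389 against 889 for promoter summits, and 60.9% of distal and 79.8% of promoter summits reached its top. In replicate 3 the order was the other way, with median ranks of 983 and 1019, and with 74.0% and 72.7% in the top. Among matched summits, Spearman's rho of signal between the replicates was 0.12 for distal and 0.37 for promoter summits, a description across peaks of the same libraries. Distal summits at the first 250 IDR ranks were all in the top of both lists (23 of 23). So were nearly all others there, with 152 of 154 promoter summits (98.7%) and 70 of 73 near small RNA genes (95.9%). At the last 600 ranks this held for 15 of 173 distal summits (8.67%, against 11.9% of promoter summits there). Within each of the 3 lower bands of rank, the distal share was below the promoter share, with 83.9% against 90.8% and 45.5% against 54.6% in the middle bands, and the intervals overlapped. A lower IDR signal and the split between replicates therefore moved together, and their parts in the difference were not tested.

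**Figure D2:**
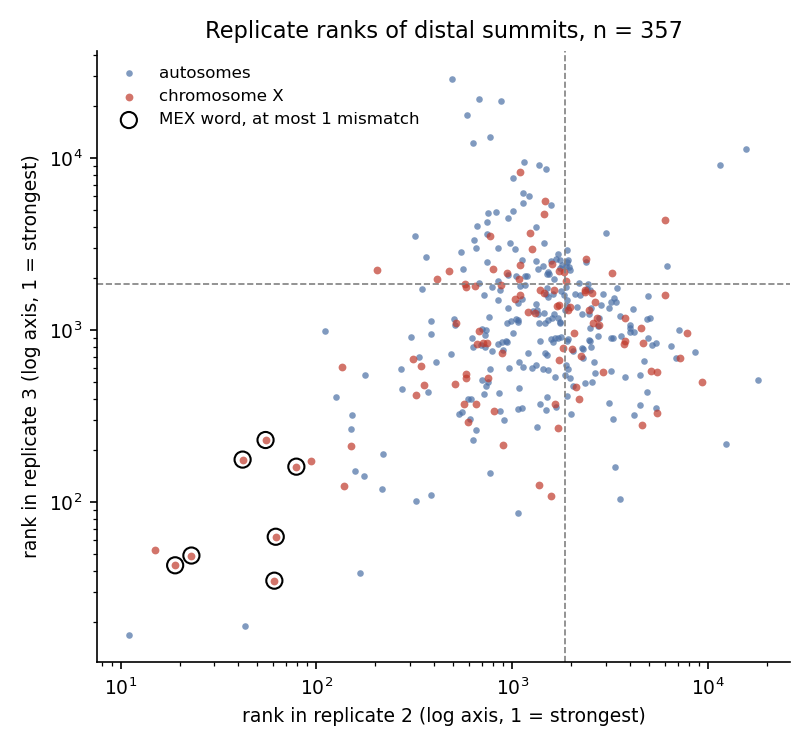
Rank in replicate 2 against rank in replicate 3 (log axes, 1 is strongest) for the 357 distal summits matched in both lists, with chromosome X in red, MEX-bearing summits circled and the end of the top of each list dashed. The 7 circled summits sit in the lower left with ranks from 19 to 230, while most other points form a cloud with little slope.

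The 5 distal summits best placed in both replicates were all at a mir-51 family gene or on X. The strongest, at IDR rank 14 (chrIV:14033736-14034384, signal 395), had its summit inside the mir-52 hairpin, with signal 203 (rank 11) in replicate 2 and 199 (rank 17) in replicate 3. The next of them lay in the non-coding gene F36H1.17, 74 bp from the mir-51 hairpin, with signal 337 at IDR rank 24 and ranks 43 and 19 in the replicates. The remaining places went to the X summits of IDR ranks 23, 34 and 25, with replicate ranks of 19 and 43, 23 and 49, and 15 and 53. These 5 summits were picked by their ranks in both lists, so their high places there follow from that choice.

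MicroRNA genes lay near 10 distal summits (2.48%, interval 1.35 to 4.50%), within 500 bp, whereas 0.244% of the bases that pass the rule lie that close to one. Of the 261 annotated microRNA genes, 21 lay within 500 bp of any IDR summit, and 11 of these within 500 bp of a distal one. The 11 included 5 of the 6 hairpins of the mir-51 family, and also mir-55b, which overlaps mir-55 on the other strand. The exception, mir-53, is a neighbour of mir-51 on chromosome IV. The X cluster of mir-54, mir-55 and mir-56 lies in an intron of F09A5.3, which held a summit 305 bp from mir-54 (rank 307, signal 160) and another 360 bp from mir-56 (rank 1083, signal 101.2). Their replicate ranks were 203 and 2243 for the former and 4606 and 282 for the latter, so each was strong in 1 replicate only. Across the 6 family members the seed was the same, and the strong summits were at mir-52 and mir-51.

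Other microRNA genes had weaker summits nearby. A summit 202 bp from mir-58a, in an intron of Y67D8A.2, had signal 155 with replicate ranks 655 and 262. A pair of intron summits in K01F9.2 lay 262 and 461 bp from mir-90, with signals of 117 and 85.6. A summit 288 bp from mir-229, in an intron of the translation regulator gene gcn-1, had signal 93.2, and in an intron of ppfr-1 a summit lay 339 bp from mir-71 (signal 85.7) and another 326 bp from mir-2 (signal 82.2).

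Over all classes chromosome X held the highest density of distal summits, and 8 of the 10 strongest intergenic summits lay there. X carried 113 of the 404 distal summits (28.0%) on 18.6% of the bases that pass the rule, or 8.29 per Mb. The density was 7.16 per Mb on III, 6.44 on I, 4.54 on II, 4.28 on IV and 2.83 on V, with 4.88 over all autosomes. Within classes other chromosomes were higher: intergenic summits numbered 16.6 per Mb of intergenic bases on III and 13.96 on X, and intron summits 6.86 per Mb of intron bases on I and 5.75 on X. Median signal differed little between X and autosomes, at 101.2 and 97.9. The medians were close, and the strongest intergenic summits were mostly on X.

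Most of those strong X summits held the MEX word. Of the 10 strongest distal summits on X, 7 held the word with at most 1 mismatch, and no autosomal window did (0 of 291, which allows a share of up to 1.03%, taken as 3 counts of the total). Such a word occurred in 0.0134% of all tiles of that width (100 bp on each side of a base) of the bases that pass the rule (0.0339% on X) and in 6.19% of distal windows on X. In the whole genome the exact word occurred 3 times, each time on X, and 2 of these lay within 100 bp of an IDR summit, at rank 34 and at the Y41G9A.17 summit. The remaining copy lies at chrX:2997301, beside the copy at Y41G9A.17, and the pooled summit within 100 bp of it had rank 10677. With exactly 1 mismatch there were 29 copies on X, 12 of them within 100 bp of an IDR summit of any class. Of the 37 copies on autosomes, none was at an IDR summit and 1 was at a pooled summit. Among copies in the bases that pass the rule, 8 of 23 on X and 0 of 27 on autosomes lay at an IDR summit. Copies were not all separate sites, since some shared a summit, as at IDR ranks 34, 49 and 343 and at Y41G9A.17. The autosomes held more of these copies than X and had fewer of them at summits, with no test of the difference. With at most 1 mismatch the word also lay in 2 promoter windows, both on X, and in 1 window near a small RNA gene. The search for this word was chosen after the strongest X summits had been seen.

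The MEX-bearing summits were strong in both replicates and lay in varied positions. Rank 23 lay between gtr-1, a predicted G-protein-coupled receptor gene, and F25E2.2, with signals of 186 in replicate 2 and 160 in replicate 3. Rank 34, between W04G3.11 and W02H3.3, had 168 and 154, and rank 49, between F20B6.9 and the protein kinase gene hpk-1, had 135 and 166. All 3 of these intergenic places gave replicate signals far above the distal medians of 45.8 in replicate 2 and 58.8 in replicate 3. Rank 58 lay in a coding exon of pks-1, a polyketide synthase gene, 15194 bp from the nearest 5′ end, with 134 and 146. Rank 86 lay in the last intron of mom-1, which encodes the Porcupine acyltransferase of Wnt secretion, with 147 and 108. Rank 95, downstream of F22H10.2, had 138 and 99.0, and the summit in the last intron of Y41G9A.17 (signal 230) had 127 and 110. The 7 signals ranged from 230 to 343 in the IDR list, and every one of these summits was in the top of both replicates. All 7 were within the first 250 IDR ranks, where 98.7% of promoter summits were in both tops too.

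With 2 mismatches the signals were lower. The 7 distal X windows whose best match had 2 mismatches had signals from 103.6 to 229 with a median of 121, and the 3 such autosomal windows from 78.01 to 127. The 23 X windows whose best match had 3 mismatches had a median of 102. The 8-letter core GCGCAGGG lay in 10 of 113 distal windows on X and in 0 of 291 on autosomes, beside 0.0535% of all tiles. A strong X summit without the word also existed: rank 25, 6033 bp upstream of K02D3.1 and next to the metalloprotease gene adm-2, had signals of 191 and 151 in the replicates and a best match with 5 mismatches. A match is a run of letters and shows no site.

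**Figure D3:**
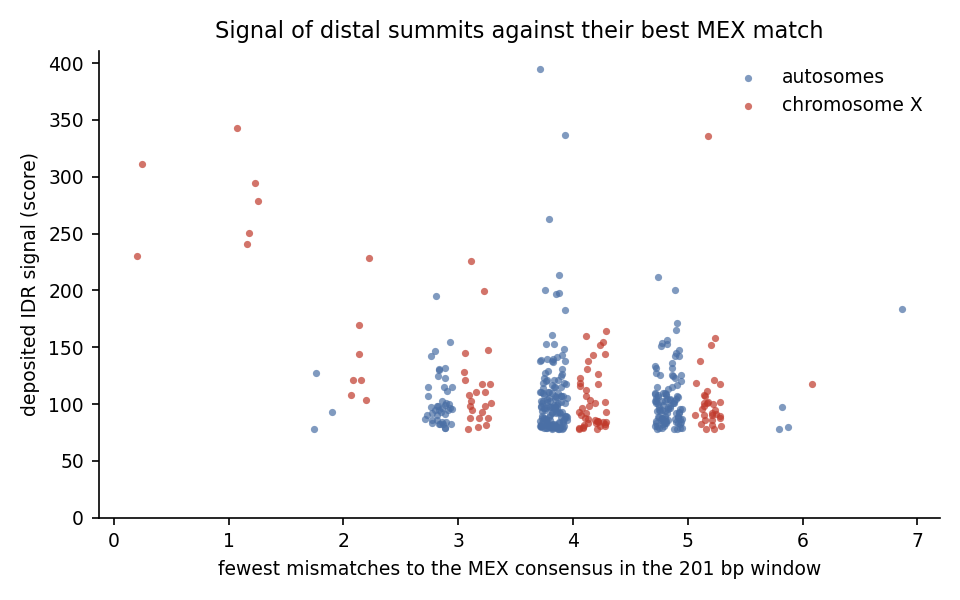
Deposited IDR signal (score) of each of the 404 distal summits against the fewest mismatches to the MEX consensus in the window of 100 bp on each side, with chromosome X in red and autosomes in blue. The 7 points at 0 or 1 mismatch are all on X and lie between 230 and 343, and the points at 4 and 5 mismatches include both chromosome groups.

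The distal summits lay mostly in the kilobases upstream of genes. The median distance to the nearest coding 5′ end was 1980.5 bp (interquartile range 1281 to 3212.5 bp, from 207 to 20219 bp), and 253 summits (62.6%) were upstream of that end. Of the 404, 131 (32.4%, interval 28.0 to 37.1%) lay 1000 to 2000 bp upstream, 98 lay 2000 to 5000 bp upstream, 100 lay 1000 to 5000 bp downstream and 28 lay 200 to 1000 bp downstream. Over 5000 bp from any coding 5′ end lay 47 (11.6%). Intergenic summits were upstream in 78.1% of cases and intron summits in 33.8%, a difference that the annotation favours because an intron lies downstream of its own gene's 5′ end. The number of intergenic summits was highest at the upstream edge of the promoter window and lower farther out. The rule leaves out everything nearer, and the spread of the passing bases by distance was not computed. These distances and upstream shares therefore describe positions and show no preference for a distance. The median moved with the window, to 1440 bp for 500 to 100 bp and 2855 bp for 2000 to 500 bp.

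At the edges of the promoter window the signals of members and non-members overlapped. The closest members upstream lay 1007 bp from Y24D9A.7 (signal 132), 1008 bp from fbxb-58 (144) and 1009 bp from cec-1 (115.3), and the closest non-members 998 bp from zig-1 (82.4), 995 bp from mgrn-1 (142) and 988 bp from hlh-30 (108). Downstream, the members at 207 bp of dim-1, 228 bp of F55C7.2 and 253 bp of ZK484.6 had signals of 85.2, 104.2 and 115.3, and the non-members at 190 bp of Y18D10A.4, 187 bp of ZK470.2 and 160 bp of C25D7.9 had 99.4, 94.3 and 141. At small RNA genes 2 of the 3 closest non-members had higher signals than the 3 closest members. The closest member was 582 bp from C28A5.t1 (signal 84.4) and the closest non-member 329 bp from C26C6.13 (107). The next members there lay 679 bp from W06A7.12 (89.7) and 689 bp from F18A1.11 (78.7), and the next non-members 261 bp from C18A11.t2 (155) and 258 bp from W01A11.21 (79.1).

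**Figure D4:**
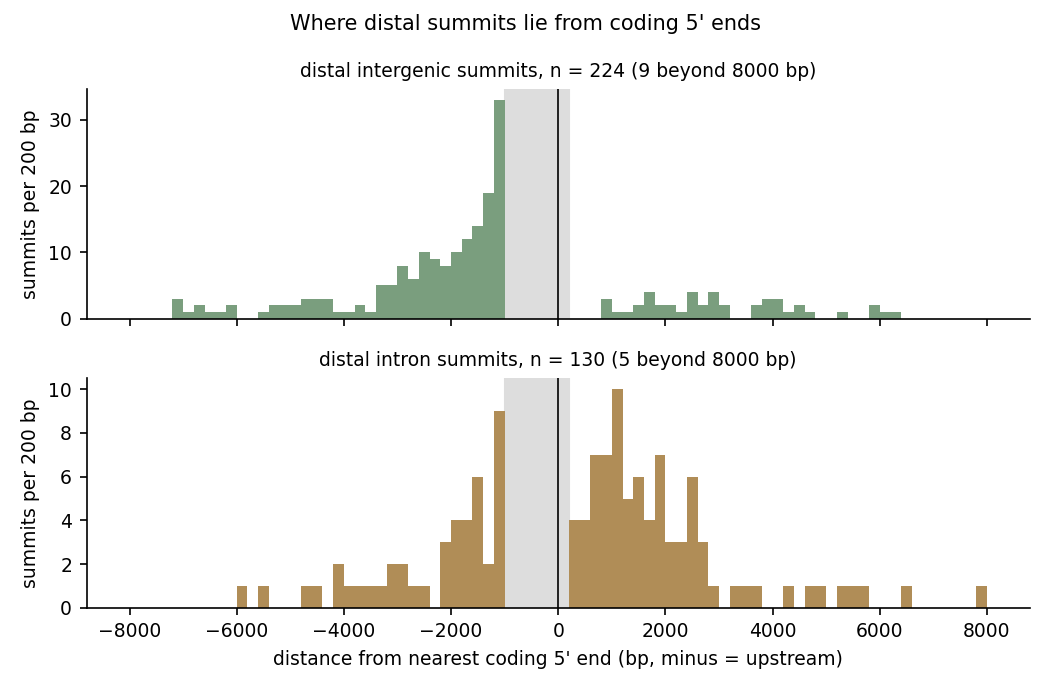
Number of distal summits per 200 bp by distance from the nearest coding 5′ end (bp, minus is upstream), for 224 intergenic and 130 intron summits, with the promoter window in grey. Intergenic summits pile up against the upstream edge of the window and thin out beyond it, and intron summits lie mainly downstream. The spread of the passing bases by distance is not shown.

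The farthest summits were in introns, in an exon and between genes. The pair farthest from a coding 5′ end lay in intron 11 of gcn-1 at 20219 and 19984 bp, with signals of 93.2 and 79.3. A summit 16578 bp from aakg-1, a gene for a regulatory subunit of AMP-activated kinase, had signal 83.97 and replicate ranks of 830 and 4857. The pks-1 exon summit at 15194 bp was the only strong one of this set, and the ppfr-1 intron summit at 14116 bp from dyf-5 completed it. The other 4 had signals from 79.3 to 93.2.

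Intron summits lay in long introns and often in the first one. The 130 intron summits lay in 108 host genes, in introns with a median length of 4188.5 bp, against 917 bp over the intron bases that pass the rule. Introns of 2000 bp or longer held 70.0% of the summits on 27.6% of those bases, and first introns held 51.5% on 27.7%. Per Mb of bases passing the rule there were 4.83 summits in introns, 10.4 between genes, 12.3 in non-coding genes and 0.160 in coding exons. Non-coding genes inside introns were counted as intron here. Intron summits were thus less dense than intergenic ones, and coding exons were nearly empty. Of the 108 hosts, 26 also had an IDR summit in a promoter window of their own. The same share over all coding genes was not computed, so this count shows neither an excess nor a lack.

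The strongest intron summits often coincided with a non-coding RNA gene nested in the intron. The highest, rank 71 on chromosome I in the first intron of ints-8, an Integrator complex subunit gene, lay in rpr-1, which encodes the RNA of ribonuclease P, and had signals of 102.6 in replicate 2 and 163 in replicate 3. In klp-6, a kinesin gene, intron 2 held ranks 165 and 215 (signals 200 and 183), both at srpr-2.2, a gene for the RNA of the signal recognition particle. A relative, srpr-1.2 in an intron of the choline kinase gene ckb-2, had rank 289 (signal 165). The srpr genes are near copies, and 51 bases at the summits of srpr-1.2 and srpr-2.1 (rank 632) occur 2 times in the genome, so reads there could come from either copy. A summit in the tubulin gene tba-7 lay in the non-coding gene T28D6.15 (rank 141, signal 213; replicate ranks 176 and 142), and one in T28F4.1 lay in T28F4.7 (rank 177, signal 197; replicate ranks 386 and 110).

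The other summits among the 10 strongest in introns had no such gene at the summit. The mom-1 and Y41G9A.17 summits carried MEX, as above. In usp-39, a gene for a ubiquitin hydrolase relative, intron 8 held rank 213 (signal 183) at a stretch of 51 bases that occurs 2 times in the genome. The F09A5.3 summit at the mir-54 cluster completed the 10. In unc-104, the kinesin gene for synaptic vesicle transport, the summit of rank 354 lay 6 bp from the tRNA pseudogene C52E12.t1, and it was the 1 distal window with sequence similarity to an annotated tRNA.

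Several host genes held more than 1 summit. Among 16 such hosts, ppfr-1, which encodes a regulatory subunit of protein phosphatase 4, held 5 with signals from 78.01 to 100.7. The summit of 100.7 lay in a 51-base stretch that occurs 871 times in the genome and had no match in replicate 2. Y111B2A.12, lsy-22 (a transcriptional co-repressor gene) and ldb-1 (a LIM-domain-binding cofactor gene) held 3 each, with best signals of 114.8, 102 and 100.8. The SWI/SNF subunit gene let-526 held summits of 140 and 110, and the Period relative lin-42 held 127 and 94.9. The AF10 relative zfp-1 held 2 with a best signal of 82.0, and K10C3.4, pqn-41, Y53G8AM.8 and F57A8.1 held 2 each with best signals of 121, 121, 110 and 105. Above these were klp-6, F09A5.3 and Y67D8A.2, with best signals of 200.5, 160 and 155.

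Between genes, tandem and divergent spaces held summits about in proportion to their length, and convergent spaces fewer. Tandem gene pairs flanked 59.8% of the 224 intergenic summits (53.5% of the bases that pass the rule), divergent pairs 33.5% (31.1%) and convergent pairs 6.70% (15.3%). In convergent spaces neither neighbour has its 5′ end, and the 15 summits there had a higher median signal, 123.3 against 98.6 for divergent and 98.4 for tandem pairs. The median intergenic interval with a summit was 6010 bp. The strong X summits at ranks 23, 34 and 95 were among those in convergent spaces.

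The remaining strong intergenic summits were on X and on 2 autosomes. On X, rank 117 lay 1400 bp downstream of the 5′ end of F55G7.5 (signal 229; replicate ranks 94 and 174) with 2 mismatches to MEX, and rank 122 lay by gap-2, a Ras GTPase-activating protein gene (226; replicate ranks 138 and 125), with 3. Rank 168, between rei-2 and pigx-1 on X, had signal 199 and replicate ranks 151 and 211. On IV, rank 144 lay between aagr-1 and D2096.7 (212; replicate ranks 158 and 152), and on II, rank 166 lay between ztf-27 and T09F3.2 (200; replicate ranks 152 and 323). The largest replicate rank among these was 323.

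Non-coding RNA genes other than the excluded small RNA classes were common near distal summits. Genes of Ensembl type ncRNA lay within 100 bp of 80 distal summits (19.8%, interval 16.2 to 24.0%), against 2.099% of the bases that pass the rule, and within 500 bp of 106 (26.2% against 6.05%). The signal of the 80 (median 99.9) was close to that of summits over 500 bp from such a gene (98.2). Long intergenic non-coding RNA genes lay within 500 bp of 7 (1.73% against 0.451%), the highest being linc-128 at rank 430 (signal 143), then linc-146 (102.98) and linc-91 (98.6). Antisense RNA genes lay near 3, which were F48C1.15 in let-526 (140), anr-20 in ppfr-1 (100.7) and anr-54 in vhp-1 (83.4). For other classes the share was lower than that of the bases, with piRNA genes within 500 bp of 13 (3.22% against 5.27%) and pseudogenes within 500 bp of 10 (2.48% against 5.81%). The highest of the latter after C52E12.t1 were T26C11.3 (128) and H05C05.3 (121). No gene of the types ncRNA, miRNA, lincRNA, antisense RNA or pseudogene lay within 500 bp of 279 distal summits (69.1%).

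The sequence at distal summits was richer in G and C than that at promoter summits and in tiles, and close to that near small RNA genes. Windows of 100 bp on each side of the summit had a mean GC content of 48.3%. It was 47.9% at the 191 summits near small RNA genes, 43.2% at promoter summits and 35.5% in all tiles of the bases that pass the rule. Soft-masked repeat sequence made up 16.7% of distal windows, 14.7% of those near small RNA genes, 28.5% of promoter windows and 36.3% of tiles. The distal summits therefore lay in sequence with less masked repeat than promoter windows or tiles, but not less than windows near small RNA genes. Of the 404, 4 had a summit stretch of 51 bases that occurs more than once.

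The 3 words, counted on either strand, were more frequent at distal summits than in tiles. GAGAGAGA lay in 94 distal windows (23.3%), in 7.41% of promoter windows and in 1.20% of tiles. CTGCGTC was in all but 303 of the 404 distal windows, in 13.4% of promoter windows and in 1.38% of tiles, and CACACACA in 66 distal windows (16.3%), with 6.22% and 1.07%. Because GC content differs, the same shares were taken among windows and tiles with 44.3 to 52.2% GC, and they were 26.4% against 2.39% for GAGAGAGA, 27.8% against 3.51% for CTGCGTC and 18.4% against 2.04% for CACACACA. All 3 words were thus more frequent at distal summits than in tiles of like GC content.

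Other words were less frequent at distal than at promoter summits, or more so by a few points. CACGTG lay in 5.69% of distal and 3.75% of promoter windows (3.28% of tiles), and TTCCCGCC in 2.23% and 1.51% (0.913%). GGGCGG lay in 10.6% of distal windows, 12.4% of promoter windows and 2.95% of tiles. TTTTTTTT was in 6.44% of distal windows, 14.3% of promoter windows and 23.0% of tiles, TATAAA in 6.93%, 13.8% and 20.5%, and TTTTCAG, which matches the 3′ splice site consensus, in 4.95%, 13.9% and 20.5%. The B-box word of tRNA genes, GTTCGANNC, lay in 2.48% of distal windows and in 58.6% of the windows near small RNA genes, with 1.497% in tiles. The 10 distal windows with it included the strong F36H1.17 summit and the tRNA pseudogene in unc-104. In tiles of like GC content the T-rich words were also rare, with 5.11% for TTTTTTTT, 5.68% for TATAAA and 10.8% for TTTTCAG, beside 4.25%, 4.72% and 3.77% of distal windows in that range. In the same GC range CACGTG lay in 4.25% of distal windows against 5.99% of tiles, and GTTCGANNC in 1.89% against 2.65%. Both were thus below tiles there, although above them without regard to GC. GGGCGG (9.91% against 6.58%) and TTCCCGCC (1.42% against 1.07%) stayed above. CTTATCA, the GATA-factor word, was in 0.990% of distal windows and 3.17% of tiles. Over all chromosomes together, distal and promoter windows thus differed most in the repeat words and the T-rich words. On X most of these shares were close. There GAGAGAGA lay in 11.5% of distal and 9.87% of promoter windows, CACACACA in 15.04% and 14.2%, and CTGCGTC in 18.6% and 13.3%. The T-rich words on X were in 7.08% and 7.73% (TTTTTTTT), 7.96% and 9.01% (TATAAA), and 3.54% and 3.43% (TTTTCAG).

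**Figure D5:**
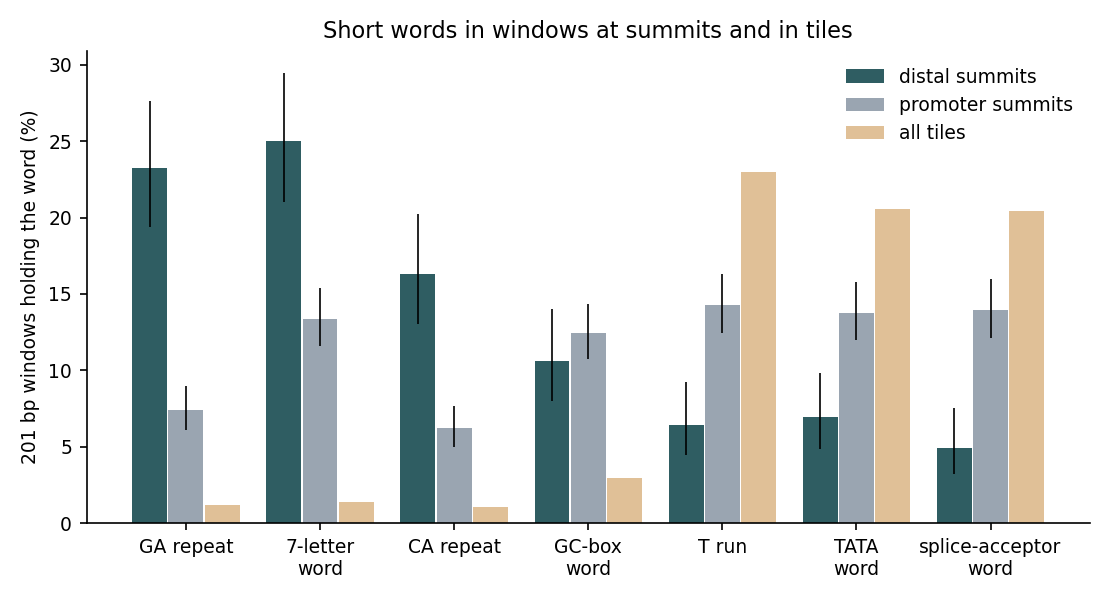
Share of windows (%), each 100 bp on either side of its centre, that hold a word, for 404 distal summits, 1255 promoter summits and all tiles of the bases that pass the rule, with 95% Wilson intervals as error bars. The words run from the GA repeat to the splice-acceptor word, and the distal bars are highest for the first 3 and lowest for the last 3.

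GAGAGAGA was less frequent on X than on autosomes, and CTGCGTC and CACACACA differed less. GAGAGAGA was in 27.8% of distal windows on autosomes and 11.5% on X, in 27.2% of intergenic and 16.2% of intron windows. CTGCGTC was in 27.5% of autosomal and 18.6% of X windows, and CACACACA in 16.8% and 15.04%. Outside these 3 words, GGGCGG was also less frequent on X, with 13.4% of autosomal and 3.54% of X windows. CTGCGTC and GAGAGAGA occurred together in 36 windows, CACACACA and GAGAGAGA in 18, and CACACACA and CTGCGTC in 16. None of the 3 words was in 205 windows, and 199 windows (49.3%) had neither a word nor a MEX match with at most 1 mismatch. Windows with GAGAGAGA were less often in the top of both replicates (28.7%, interval 20.6 to 38.6%) than those without it (44.8%, interval 39.4 to 50.4%), while their median signals were 95.9 and 99.9. Presence in both lists was close, at 86.2% and 89.03%. For CTGCGTC the share in the top of both was 43.6% with the word and 40.3% without it, and for CACACACA 37.9% and 41.7%. The part of these words in the ranks was not tested.

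The pathways of the nearest or host genes were read from 15 gene lists chosen with earlier results of these data known, with no test. Genes of Wnt, Notch, EGF and TGF-beta signalling had 11 distal summits at 10 genes (2.72% of distal summits; the list is 0.335% of coding genes), with a median signal of 102. They included mom-1, the BMP pathway zinc-finger gene sma-9 (signals 158 and 81.3, 3011 and 2811 bp upstream) and the Ror receptor gene cam-1 (151, in its first intron). Since 5 of the 11 were intron summits, the list's share of intron bases bears on this, and it was 0.916% against 3.85% of intron summits. Both shares were above those of the list in genes and in intron bases, on small counts.

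Chromatin and neuronal genes had several summits each. Chromatin regulators had 7, among them the class II histone deacetylase gene hda-4 (138, 2538 bp upstream), the double-bromodomain gene bet-1 (118, 1323 bp upstream) and the H3K27 demethylase gene jmjd-3.1 (87.6). Synapse and neuronal signalling genes had 7, led by unc-104 (153), the neuropeptide gene nlp-40 (123.3) and the diacylglycerol kinase gene dgk-1 (121). Cell adhesion and axon guidance genes had 7, with dlg-1 (118), unc-51 (110) and let-413 (99.1). Each of these lists held 1.73% of distal summits, with 0.566%, 1.19% and 0.396% of coding genes. Of intron summits they held 1.54%, 0.769% and 0.769%, against 0.956%, 1.71% and 1.94% of intron bases. The neuronal and adhesion lists thus lay above their shares of genes but below their shares of intron bases, on small counts.

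The 4 transcription factor lists are small, apart from the nuclear hormone receptors. Other bHLH, forkhead, T-box, Sox and GATA factors had 5, led by the E-protein gene hlh-2 (148, 1028 bp upstream), hlh-29 (121) and elt-3 (91.0). Homeobox genes had 3, which were ceh-48 (98.1), ceh-58 (96.1) and the Distal-less relative ceh-43 (84.4). Early zygotic lineage regulators had 3, which were hlh-29, sdz-38 (107) and elt-3, and nuclear hormone receptors had 4 at 3 genes, nhr-3 (96.6 and 83.3), nhr-17 (89.5) and nhr-88 (82.8). Their shares of distal summits were 1.24% (0.381% of coding genes), 0.743% (0.471%), 0.743% (0.365%) and 0.990% (1.35%) in that order, so the nuclear hormone receptors alone lay below their share of genes. The highest signal among these summits was 148. Of intron summits the 4 lists held 0%, 0%, 0% and 0.769% in the same order, against 0.585%, 0.879%, 0.220% and 1.37% of intron bases.

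The remaining 6 lists with summits held 1 to 4 each. Maternal RNA and polarity regulators had 2, both in first introns, the oocyte-to-embryo kinase gene mbk-2 (145) and the polarity kinase gene par-1 (96.3). RNA binding and splicing factors had 3, which were sup-26 (153), larp-1 (139) and exc-7 (86.9), and muscle structure genes had 4, including dyb-1 (125), unc-97 (117) and act-1 (97.5). Those lists made up 0.495%, 0.743% and 0.990% of distal summits and 0.225%, 0.411% and 0.225% of coding genes. Ion channel genes had 2 (0.495% against 0.746%), slo-1 (115.1) and twk-49 (80.2). The ribosomal protein and translation factor list had 1 of 404, at rpl-21 (115.3), and the cuticle collagens 0 of 404 on 177 genes. Chemoreceptor genes, the largest list at 6.56% of coding genes, had 4 (0.990%) at srg-64 (126 and 80.4), srt-52 (125) and srd-70 (83.3). The shares of the chemoreceptor, collagen, ion channel and ribosomal lists lay below their shares of genes.

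Distances from distal to promoter summits were near those of the whole IDR list. A promoter summit lay within 2000 bp of 18 distal summits (4.46%, beside 6.11% of all IDR summits), and the median gap to the nearest promoter summit was 22995 bp, beside 24287 bp for all IDR summits. Another distal summit lay within 2000 bp of 52 (12.9%, beside 4.05% of all IDR summits, which include these 52). The rule itself places distal summits among bases that can hold other distal ones, so this contrast shows no clustering. Another IDR summit of any class lay within 1000 bp of 7.92% of distal and 6.05% of all IDR summits. In introns 24 of 130 had a distal neighbour that close, and between genes 19 of 224. Along the chromosomes, 55.2% of distal summits lay in the middle 50% by length, which holds 48.4% of the bases that pass the rule.

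The widths of the deposited peaks bear on the strong tail. Most peaks in the IDR list have 1 width, 436 bp, and 33 distal peaks (8.17%) were of another width, as were 15.8% of all IDR peaks. The 33 had a median signal of 199, and all 7 MEX-bearing summits and the mir-52 summit were among them. The labels do not say how the caller sets a width, and the part of width in these signals was not tested.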

How the data were processed

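Chromatin immunoprecipitation of GFP-tagged F13C5.2 was measured in 2 embryo replicates. The authors deposited ce11 peak lists for each replicate, for the pooled reads and for the IDR set, each called against 2 control alignments per the file headers and notes. The deposited signal is a score of the caller. The deposited −log10 q-value was tied at its maximum for most peaks and was not used for ranking. Caller, aligner and IDR cutoff were not given in the sources used here. Read depth is unknown. The IDR list held 1850 peaks, and the top of a replicate list means its first 1850. The ce10 lists were not used. Summits were the peak start plus the deposited summit offset, and replicate summits within 100 bp were matched. Territory means all bases passing the rule, in 201 bp tiles for sequence. The tools were BLAST+ 2.17.0, Python 3.11.15 with pandas 2.3.3, numpy 2.4.6 and scipy 1.17.1, and matplotlib 3.10.9. Scripts were checked on simulated positions and planted words. Intervals are 95% Wilson intervals and cover counting error only.

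The members and gene lists were chosen with earlier results of these data known. Named summits were the 10 strongest intron and intergenic ones, the 5 farthest, the 5 best in both replicates, hosts with several summits, the nearest 3 on each side of a limit, and up to 3 per gene list or non-coding class. The MEX search, its 8-letter core, the 3 words, the mir-51 family, the GC-matched tiles and the alternatives without X and without non-modal widths were chosen after values were seen, as were the mob-2, srpr-2.1 and other MEX-bearing summits where named.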

Additional observations from a re-analysis of the deposited data

How the results depend on the processing

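Of 239 alternative values for 16 results, 168 stayed within their limit and 71 moved. The limit (the 95% Wilson interval for a share, the replicate SD for medians, GC and masked sequence, 1.5 times for a count) was settled after the values were seen. A window of 2000 bp upstream to 500 bp downstream left 253 distal summits (13.7%; 133 intergenic; median distance 2855 bp; 0% within 2000 bp upstream), and one of 500 to 100 bp gave 30.1%, 1440 bp and 23.6%. Outermost 5′ ends gave 26.3%, 202 intron summits (41.5%), 1678 bp and 26.9%, and ends of every transcript 14.6%, 84 and 1910 bp. Without the small RNA filter the values were 32.2%, 229 intron summits (38.5%), 27.4% within 2000 bp upstream, a signal ratio to promoters of 0.995, 52.8% in the top of both replicates, and words in 17.3%, 18.3% and 11.8% (GAGAGAGA, CTGCGTC, CACACACA). The stronger 50% of peaks gave 145 (15.7%), 37 intron (25.5%), 91 intergenic, 1891 bp, ratio 0.942, 93.1% matched and 79.3% in both tops. The 3700 strongest pooled peaks gave 1175 (31.8%), 403 intron, 614 intergenic, 2064 bp, 27.7%, ratio 0.832, GC 45.3%, masked 20.3%, 77.2% matched, 14.2% in both tops, and GAGAGAGA 18.5% and CTGCGTC 18.2%. Counting non-coding genes before introns gave 26.2% intron. Matching within 50 bp gave 59.9% and 30.4%, and within 200 bp 99.3% matched. Sequence windows of 50 bp on each side gave 12.9%, 13.9% and 9.16% for the words and 4 MEX windows, and those of 150 bp gave 31.2% and 21.8% for the latter words and 18.9% masked. Without X the median distance was 1891 bp, GAGAGAGA 27.8% and MEX 0, and without non-modal widths 1964 bp, ratio 0.943 and MEX 0. Leaving out a replicate gave 20.1 to 28.8% distal, 1986.5 to 2003 bp, ratios of 0.899 to 0.919, GC 45.1 to 48.5%, masked 17.6 to 20.3%, GAGAGAGA 18.5 to 20.8% and CTGCGTC 19.7 to 24.2%. No paired analysis was possible because there is 1 group and no second condition. Depth is unknown, so the smallest detectable summit cannot be given.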
